A study of Mus musculus with 16 samples.

Results

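Odorant receptors are the odor-detecting proteins of olfactory sensory neurons, the receptor cells of the nose. They belong to the seven-transmembrane G protein-coupled receptors, signal through the G protein subunit encoded by Gnal, and form the largest gene family of the mouse genome. Each mature neuron settles on a single allele of a single receptor gene, so the receptor transcripts of a sorted population of neurons depend on which neurons it holds. Most receptor genes, including those of mouse chromosome 9, are of the tetrapod-type class II, lie in tandem clusters, and have intronless coding regions. The receptors described here are the 128 chromosome 9 probesets whose annotated symbol is Olfr followed by digits, without Olfr151, Olfr160 and pseudogenes. They are 128 of 22206 gene probesets on the array and 128 of 1080 probesets for odorant receptors, and each stands for a different gene. The membership rule used no measured value.

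Each of 4 groups had 4 Clariom S arrays, 16 in all, which measured RNA of cells sorted from the olfactory mucosa of S100a5-tauGFP mice. In this line green fluorescent protein (GFP) reports S100a5, a gene whose expression in olfactory neurons depends on their activity. The 24 mice, of both sexes and 7 to 12 weeks old, were housed singly for 40 h in chambers flushed with clean air at 3.1 L/min. For the last 14 h they received, for 10 s every 20 min, either an odorant or filtered air as vehicle. The groups were GFP+ cells with odorant, GFP- cells with odorant, GFP+ cells with vehicle and GFP- cells with vehicle. All 4 groups carried the reporter, and the labels give neither its number of alleles nor the sorting gates. Each array held cells from 3 mice, and 24 mice give 8 such pools, so a GFP+ array and the GFP- array with its treatment and number were taken as 1 pool. The odorant is bourgeonal in the sample labels and indole in the series title, so it is called the odorant here.

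Values are log2 signals as deposited, and differences are differences of log2 signals. Levels of different receptors come from different probes, so their order is no order of RNA amounts. A receptor counted as above background on an array when it exceeded the 95th percentile of 23 control probesets that match no mouse sequence, a level of 6.57 to 6.87. Between 78 and 89 of the 128 receptors were above background on any 1 array. In all, 48 were above it on all 16 arrays and 20 on none. S100a5 was at 15.56 to 16.27 in GFP+ cells with odorant and 14.55 to 15.22 in GFP- cells with odorant, a difference of 1.14 (limma, adjusted p = 0.0025). With vehicle its difference was 0.93 (limma, adjusted p = 0.0024). Omp, the defining marker of mature olfactory sensory neurons, lay between 18.53 and 18.75 on every array. Markers of other cells also moved with the sort. The log2 of the summed signal of 7 immune markers was 9.63 to 11.04 (GFP+) and 16.57 to 18.57 (GFP-), and that of 8 sustentacular markers was 14.53 to 16.54 (GFP+) and 16.36 to 17.99 (GFP-). For 6 microvillar and tuft markers it was 7.85 to 8.58 (GFP+) and 11.51 to 13.09 (GFP-). For 5 globose basal and dividing cell markers it was 6.79 to 7.49 (GFP+) and 9.22 to 11.89 (GFP-). The 9 immature neuron markers gave 16.33 to 16.60 (GFP+) and 16.69 to 17.10 (GFP-), sums led by the bright Stmn2 and Tubb3. The median difference over these 9 markers was larger, -2.46 with odorant and -2.59 with vehicle. All 3 horizontal basal markers were at background on all 16 arrays. So were 3 of the 5 globose, 1 of the 6 microvillar and tuft, 1 of the 4 Bowman gland and 2 of the 19 mature neuron markers. A call on such a marker compares signals at background and gives no fold. Of these lists limma called lower in GFP+ cells, with odorant and with vehicle, 6 and 6 of the 7 immune, 3 and 7 of the 8 sustentacular, 6 and 6 of the 6 microvillar and tuft, 4 and 5 of the 5 globose, and 6 and 6 of the 9 immature neuron markers, and 0 higher. Of 4 Bowman gland markers it called 2 lower in each, and the 1 red blood cell marker was lower in both. For the 19 mature neuron markers it was 21.61 to 21.70 (GFP+) and 21.42 to 21.56 (GFP-), with 1 called higher with odorant and 4 with vehicle. Eif2s3y, which is Y-linked, read 2.63 to 3.41 on arrays of replicate 4, in both treatments, and 9.95 to 11.17 on all others. The part of cell composition in the receptor differences below was not tested.

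The gene order along the chromosome placed the receptors in 2 clusters, the first with 35 members running from Olfr24 to Olfr18 and the second with 93 running from Olfr874 to Olfr986. A boundary was set where at least 5 protein-coding genes other than receptors lay between neighbours. MOR family names, which group receptors by protein similarity, came from the RefSeq synonyms. The families with at least 5 members were MOR171 (34 members), MOR162 and MOR224 (10 each), MOR170 (9), MOR165 (7), MOR145 and MOR161 (6 each), and MOR146 and MOR223 (5 each). The other 36 receptors belonged to smaller families.

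The start of 4 coding regions of the MOR171 family is shown first. These starts are similar, and the genes lie near each other and differed between the fractions in opposite directions. The RefSeq models of these genes begin at the start codon, and the first 50 coding bases are given for Olfr968 (chr9:39772749-39772798, minus strand), Olfr969 (chr9:39795377-39795426, plus strand), Olfr970 (chr9:39819641-39819690, plus strand) and Olfr972 (chr9:39873277-39873326, plus strand), build GRCm38.p6. Capitals mark the 9 positions at which the 4 sequences are not all the same.
Olfr968: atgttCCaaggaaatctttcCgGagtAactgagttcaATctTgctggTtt
Olfr969: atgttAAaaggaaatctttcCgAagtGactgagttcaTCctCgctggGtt
Olfr970: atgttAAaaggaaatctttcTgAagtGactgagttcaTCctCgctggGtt
Olfr972: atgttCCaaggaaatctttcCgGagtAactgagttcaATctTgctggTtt
Olfr968 and Olfr972 are the same at all 50 bases, and Olfr969 and Olfr970 differ at 1. The other 4 pairings differ at 8 or 9 bases. These genes were chosen for display after their values had been seen. Similarity beyond these 50 bases was not compared. The array's probe sequences were not used here, so how far its probes separate genes with such similar starts is uncertain.

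Within this run of neighbours the fractions differed in opposite directions. Olfr968 was at 12.91, 12.91, 13.24 and 13.10 in GFP+ cells with odorant, against 10.47, 11.12, 11.72 and 11.06 in GFP- cells with odorant. With vehicle, Olfr968 was at 13.46, 13.23, 12.91 and 13.69 in GFP+ cells, against 11.63, 10.64, 10.98 and 11.76 in GFP- cells. All 8 GFP+ arrays thus lay above all 8 GFP- arrays, with a 3.86-fold difference with odorant (limma, adjusted p = 0.00018) and a 4.20-fold difference with vehicle (limma, adjusted p = 0.00033). Olfr972 was the reverse, at 7.08, 6.43, 6.37 and 7.66 in GFP+ cells with odorant, against 12.19, 11.99, 11.89 and 12.77 in GFP- cells with odorant. With vehicle, Olfr972 was at 6.19, 6.61, 3.85 and 6.63 in GFP+ cells, against 12.74, 12.69, 12.13 and 12.56 in GFP- cells. Every GFP+ array lay below every GFP- array, and none of the vehicle GFP+ arrays was above background. Olfr972 was 40.0-fold lower in GFP+ cells with odorant (limma, adjusted p = 6.03e-07) and at least 58.8-fold lower with vehicle (limma, adjusted p = 1.11e-05).

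Olfr969 was at background on all 8 GFP+ arrays, at 3.99, 4.90, 4.96 and 5.57 with odorant, against 11.59, 11.46, 11.52 and 10.91 in GFP- cells with odorant. With vehicle, Olfr969 was at 5.02, 6.11, 5.86 and 5.03 in GFP+ cells, against 11.57, 11.14, 10.51 and 11.46 in GFP- cells. GFP+ cells were at least 24.3-fold lower with odorant (limma, adjusted p = 1.34e-07) and at least 22.9-fold lower with vehicle (limma, adjusted p = 9.81e-07). Its neighbour Olfr970 was on the other side, at 7.99, 8.85, 9.38 and 10.03 in GFP+ cells with odorant, against 7.10, 4.82, 6.53 and 5.92 in GFP- cells with odorant. With vehicle, Olfr970 was at 9.37, 8.35, 9.49 and 10.50 in GFP+ cells, against 5.40, 6.60, 6.90 and 6.80 in GFP- cells. The groups did not overlap, and Olfr970 was at least 4.93-fold higher in GFP+ cells with odorant (limma, adjusted p = 0.0021) and at least 6.28-fold higher with vehicle (limma, adjusted p = 0.00081). Olfr971, between Olfr970 and Olfr972, had differences of 2.63 with odorant and 2.82 with vehicle, both called higher. The plot of 5 neighbouring receptors by array shows the alternation.

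**Figure D1:**
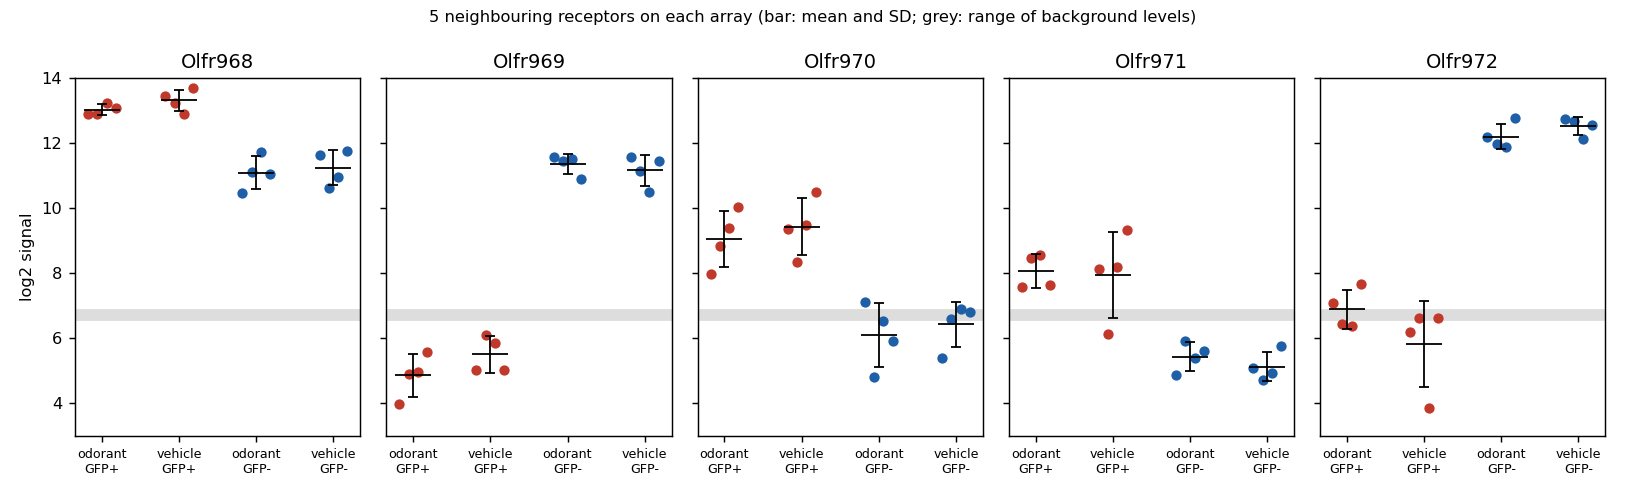
Log2 signal of 5 neighbouring MOR171 receptors on each of the 16 arrays, in 4 groups per panel from left to right: odorant GFP+, vehicle GFP+, odorant GFP- and vehicle GFP-. Red points are GFP+ arrays, blue points GFP- arrays, black bars the group mean and SD of 4 arrays, and the grey band the background levels of 6.57 to 6.87. GFP+ points lie above GFP- points for Olfr968, Olfr970 and Olfr971 and below them for Olfr969 and Olfr972.

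The first comparison asked which chromosome 9 receptors differed between the sorted fractions, GFP+ and GFP-. With odorant, limma called 53 of the 128 higher in GFP+ cells and 28 lower, 63.3% in all, where 11.4% of all 22206 probesets were called (3.57% higher, 7.84% lower). With vehicle it called 53 higher and 26 lower, 61.7% in all, where 17.7% of all probesets were called (7.76% higher, 9.97% lower). The other 952 odorant receptors had close shares, 57.9% with odorant (315 higher, 236 lower) and 60.4% with vehicle (326 higher, 249 lower). The median difference of the 128 was 0.70 with odorant and 0.70 with vehicle. Over the other receptors it was 0.26 and 0.23, and over all probesets 0.10 and 0.082. Of the called members, 6 with odorant and 7 with vehicle were at background in both fractions, where a difference in signal does not give a fold. With each array's median subtracted, which moved the median of all probesets to 0.42 with odorant and 0.45 with vehicle, 70 and 74 members were called higher (54.7% and 57.8%) and 25 and 26 lower. With that scaling, 34.9% and 46.7% of all probesets and 44.7% and 46.3% of the other receptors were called higher. In these bulk samples, fewer neurons that express a receptor and less receptor RNA per neuron cannot be told apart.

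The odorant and vehicle mice were different animals, so the fraction difference was measured on separate arrays in each. Of the 53 receptors called higher with odorant, 45 were also called higher with vehicle, which is 84.9% of either set. Of the 28 called lower with odorant, 24 were also called lower with vehicle (85.7%), out of 26 with vehicle (92.3%). None was called in opposite directions, 12 were called with odorant only, 10 with vehicle only and 37 in neither. The sign of the difference was the same for 120 of the 128, and the largest gap between the 2 differences of a receptor was 1.39, for Olfr972. Across the 128 receptors, which share the arrays and the probe design, the differences correlated with r of 0.98, given as a description. Within pools, 54 receptors were higher in the GFP+ array in 8 of 8 pools, 24 were lower in 8 of 8, and 50 were mixed. Counts by pool were made for the 128 only, so no share of all probesets stands beside them. All 8 GFP+ arrays lay above all 8 GFP- arrays for 37 receptors (28.9%, against 2.83% of all probesets) and below them for 20 (15.6%, against 6.36%). Among the other receptors these patterns held for 251 and 198 of 952 (26.4% and 20.8%).

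**Figure D2:**
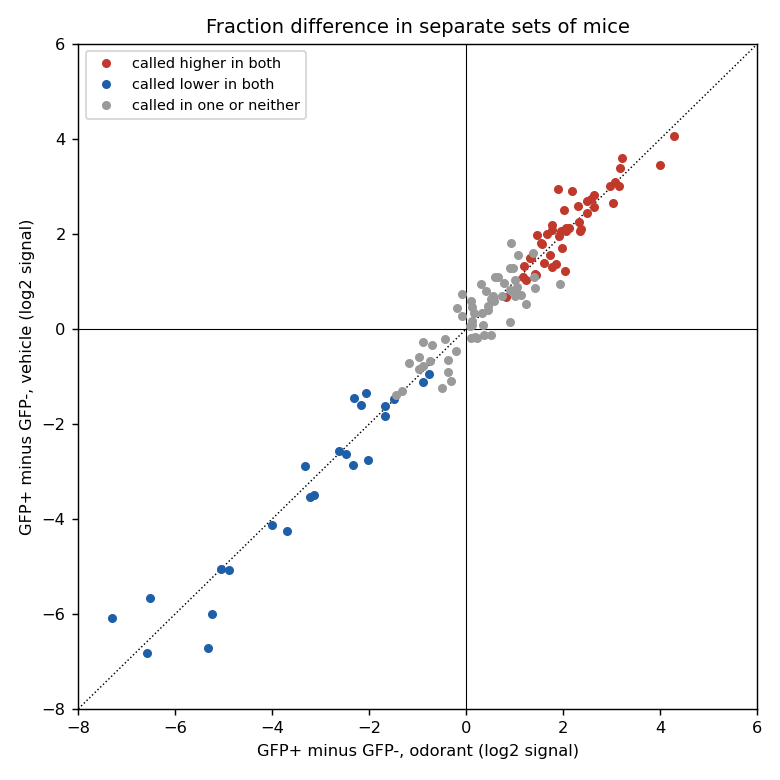
Fraction difference (GFP+ minus GFP-, log2 signal) of each of the 128 receptors in mice given odorant (horizontal) and in mice given vehicle (vertical), with the line of equal values dotted. Red and blue points are the 45 receptors called higher and the 24 called lower in both, grey points all others. The points lie along the dotted line from Olfr878 and Olfr77 at the lower left to Olfr981 at the upper right.

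Among the receptors that were higher in GFP+ cells, Olfr981 of the MOR223 family had the largest difference. It was at 10.09, 10.82, 11.01 and 10.11 in GFP+ cells with odorant, against 6.81, 6.07, 6.44 and 5.59 in GFP- cells with odorant. With vehicle, Olfr981 was at 10.59, 10.96, 10.65 and 11.82 in GFP+ cells, against 7.37, 7.12, 6.93 and 6.33 in GFP- cells. Its groups were far apart, with a difference of 4.28 with odorant (SE 0.29; limma, adjusted p = 2.44e-06; at least 14.2-fold) and 4.07 with vehicle (SE 0.30; limma, adjusted p = 6.87e-06; 16.8-fold). Olfr849, the next largest with odorant and of the MOR151 family, was at 11.09, 11.40, 11.95 and 12.68 in GFP+ cells with odorant, against 7.29, 7.61, 7.76 and 8.52 in GFP- cells with odorant. With vehicle, Olfr849 was at 11.48, 12.08, 12.12 and 12.86 in GFP+ cells, against 8.76, 8.29, 8.16 and 9.51 in GFP- cells. It was above background on all 16 arrays, so both sides were measured, and its GFP+ cells were 15.9-fold higher with odorant (limma, adjusted p = 1.53e-05) and 10.99-fold higher with vehicle (limma, adjusted p = 4.54e-05).

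Olfr854 (MOR147) had a difference of 3.20 with odorant and 3.60 with vehicle, at 9.10 to 10.37 on the GFP+ arrays and 5.34 to 7.15 on the GFP- arrays. Olfr905 (MOR167) had a difference of 3.18 and 3.39, at 8.89 to 10.16 on the GFP+ arrays and 5.11 to 6.76 on the GFP- arrays. Olfr860 (MOR146) had a difference of 3.16 and 3.02, at 9.19 to 9.93 on the GFP+ arrays and 5.53 to 7.62 on the GFP- arrays. None of these 3 receptors overlapped between the fractions, and each was well above background in GFP+ cells and near it in GFP- cells. Olfr887 (MOR162) was at background on all 8 GFP- arrays, and its difference was 3.06 with odorant and 3.08 with vehicle. The remaining largest rises were Olfr970, Olfr921, Olfr912, Olfr914, Olfr971, Olfr958 and Olfr965, with differences of 1.89 to 3.02 with odorant and 2.65 to 3.00 with vehicle. Of them, Olfr912, Olfr914 and Olfr921 belong to the MOR165 family. For Olfr912 the odorant call was lost without odorant GFP+ replicate 3 or 4 or without odorant GFP- replicate 1, with an adjusted p of up to 0.053.

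The falls in GFP+ cells were larger than the rises. Olfr77, of the MOR143 family, was at 5.80, 5.93, 5.56 and 5.60 in GFP+ cells with odorant, against 12.22, 12.29, 12.68 and 12.01 in GFP- cells with odorant. With vehicle, Olfr77 was at 5.06, 4.95, 4.60 and 6.50 in GFP+ cells, against 12.64, 12.41, 11.79 and 11.58 in GFP- cells. No GFP+ array was above background and every GFP- array was far above it, which makes GFP+ cells at least 46.3-fold lower with odorant (limma, adjusted p = 9.74e-09) and at least 43.8-fold lower with vehicle (limma, adjusted p = 1.32e-06). Olfr878, of the MOR163 family, was at 4.42, 4.55, 5.25 and 3.91 in GFP+ cells with odorant, against 12.05, 11.92, 11.84 and 11.53 in GFP- cells with odorant. With vehicle, Olfr878 was at 5.78, 5.51, 5.70 and 5.85 in GFP+ cells, against 11.96, 12.07, 11.09 and 12.08 in GFP- cells. It too was at background on all 8 GFP+ arrays, at least 33.5-fold lower with odorant (limma, adjusted p = 2.79e-08) and at least 35.5-fold lower with vehicle (limma, adjusted p = 7.77e-08). Olfr250, of the MOR170 family, was at 7.02, 7.46, 6.71 and 7.38 in GFP+ cells with odorant, against 12.42, 11.80, 13.00 and 12.35 in GFP- cells with odorant. With vehicle, Olfr250 was at 4.82, 6.29, 5.85 and 7.38 in GFP+ cells, against 12.57, 11.53, 11.88 and 12.39 in GFP- cells. In contrast to Olfr77 and Olfr878, Olfr250 was above background on 5 GFP+ arrays, and it was 38.0-fold lower with odorant (limma, adjusted p = 2.1e-07) and at least 38.8-fold lower with vehicle (limma, adjusted p = 8.83e-06).

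Olfr884 (MOR162), Olfr829 (MOR147), Olfr957 (MOR171) and Olfr18 (MOR145) were at background on all 8 GFP+ arrays and above it on all 8 GFP- arrays, with differences of -5.06 to -3.69 with odorant and -5.08 to -4.13 with vehicle. Together with Olfr77, Olfr878, Olfr969 and Olfr836, 8 of the 128 receptors (6.25%) showed this pattern, as did 61 of the other 952 (6.41%). The reverse, above background on all 8 GFP+ arrays and on no GFP- array, was seen for Olfr251 and Olfr920 among the 128 (1.56%) and for 22 of the others (2.31%). Olfr836 (MOR152), Olfr251 (MOR170) and Olfr920 (MOR165) were named after their values were seen. Olfr943 (MOR171) and Olfr857 (MOR146) had differences of -3.23 and -3.14 with odorant and -3.55 and -3.51 with vehicle. Each was above background on all 4 vehicle GFP- arrays and on no GFP+ array. Olfr868 (MOR145) differed most between pools among these, at 7.93, 10.03, 6.52 and 6.45 in GFP+ cells with odorant, against 11.20, 10.87, 11.35 and 10.78 in GFP- cells with odorant. With vehicle, Olfr868 was at 8.05, 11.20, 7.14 and 6.54 in GFP+ cells, against 10.85, 11.42, 10.98 and 11.27 in GFP- cells. The GFP+ arrays of the pools numbered 2 were the high ones in both treatments, and with vehicle the groups overlapped. Its difference was -3.32 with odorant (limma, adjusted p = 0.0052) and -2.90 with vehicle (limma, adjusted p = 0.031), and the vehicle call was lost in 7 of 8 fits that left out 1 array, all except the one without vehicle GFP+ replicate 2, with an adjusted p of up to 0.084.

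**Figure D3:**
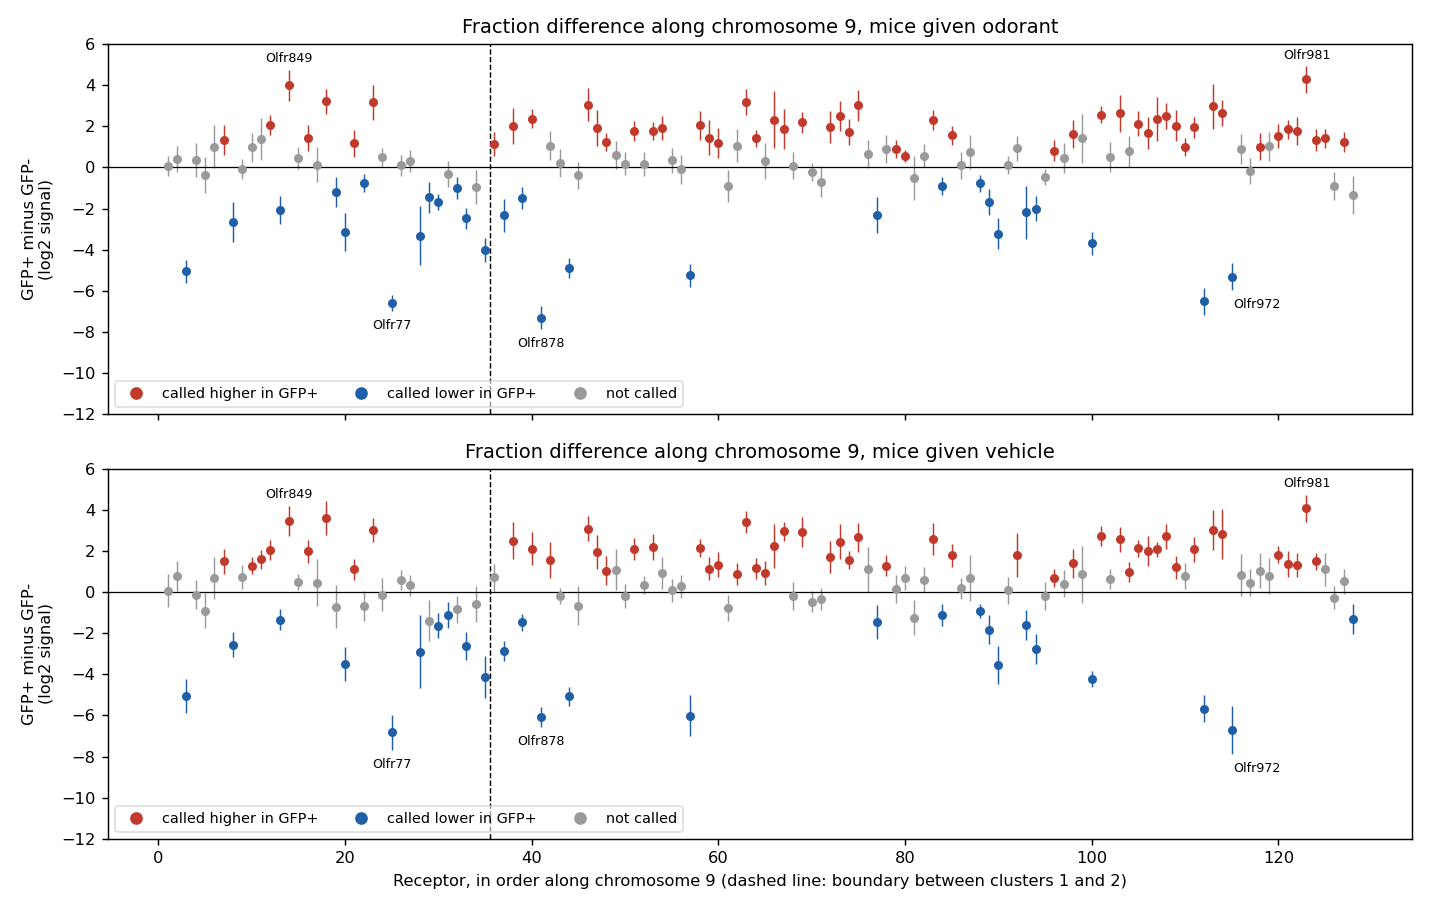
Fraction difference (GFP+ minus GFP-, log2 signal) of the 128 receptors in their order along chromosome 9, with odorant in the upper panel and with vehicle in the lower. Points are fitted differences and bars their 95% intervals, coloured by call, and the dashed line separates the first cluster of 35 from the second of 93. Falls reach -7.30 for Olfr878 and -6.83 for Olfr77, and rises reach 4.28 and 4.07 for Olfr981.

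The counts of the 2 clusters were as follows. In the first cluster 7 of 35 receptors were higher and 13 lower with odorant (median difference 0.076), and 9 were higher and 10 lower with vehicle (median -0.13). In the second, 46 of 93 were higher and 15 lower with odorant (median 0.98), and 44 were higher and 16 lower with vehicle (median 0.94). With array medians subtracted, 12 receptors of the first cluster were higher and 11 lower with odorant, and 14 were higher and 10 lower with vehicle (median 0.23). The median of the first cluster with odorant was -0.090 with mature neuron markers subtracted, and with vehicle it was 0.043 after quantile normalization. The counts were not tested against each other. Neighbouring genes lay on the same side or on opposite sides. Of 126 adjacent pairs within a cluster, 47 had both members called with vehicle, of which 25 were both higher, 4 both lower and 18 opposite. Whether 18 differs from what the shares of higher and lower calls alone would give was not tested. The differences of adjacent receptors correlated with r of -0.043, a description over pairs that share members and arrays. The widest gaps between neighbours with vehicle were 9.53 for Olfr971 and Olfr972, 8.67 for Olfr969 and Olfr970, 8.20 for Olfr145 and Olfr878, and 8.13 for Olfr250 and Olfr251.

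The longest run of adjacent receptors called in 1 direction with vehicle had 7 members, Olfr148, Olfr960, Olfr961, Olfr963, Olfr149, Olfr965 and Olfr150, all higher in GFP+ cells. The longest run of lower calls had 3. The first 5 of that run belong to the MOR224 family and the last 2 to MOR171. With vehicle the differences within the run were 0.97 to 2.70, and with odorant they were 0.79 to 2.63. Olfr961, above background on all 16 arrays, was at 11.19, 12.08, 11.53 and 11.35 in GFP+ cells with odorant, against 8.74, 9.76, 9.92 and 9.25 in GFP- cells with odorant. With vehicle, Olfr961 was at 11.55, 11.47, 11.12 and 12.03 in GFP+ cells, against 9.50, 9.29, 9.28 and 9.62 in GFP- cells. The fractions did not overlap, and the difference was 2.12 with odorant and 2.12 with vehicle. Olfr960 was the one member of the run not called with odorant, with a difference of 0.79 (limma, adjusted p = 0.21, and 0.044 with the pool as a block, in a range of 0.017 to 0.41 over its alternatives).

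By family, the calls were uneven, and the families were not tested against each other. Of all 128 receptors, 41.4% were higher in each treatment, and 21.9% with odorant and 20.3% with vehicle were lower. All 5 MOR223 receptors were higher in GFP+ cells in both treatments, with differences of 1.31 to 4.28 with odorant and 1.31 to 4.07 with vehicle. Of the 10 MOR224 receptors, 7 were higher and 0 lower in both treatments, all 10 had a positive difference, and the median was 1.89 with odorant and 2.03 with vehicle. MOR165 had 5 of 7 receptors higher with odorant and 6 of 7 with vehicle, and 0 lower. Its odorant count was 3 without odorant GFP+ replicate 3 or 4 or without odorant GFP- replicate 1. MOR145, which lies wholly in the first cluster, had 0 receptors higher and 4 of 6 lower with odorant, and 0 higher and 2 lower with vehicle. Its vehicle counts varied: 4 were lower with mature neuron markers subtracted or with all 16 arrays in 1 model, 1 was higher with array medians subtracted or with the pool as a block, and 1 was lower in 7 of 8 fits that left out 1 array (all except the one without vehicle GFP+ replicate 2). The large MOR171 family went both ways, with 13 of 34 higher and 9 lower with odorant and 11 higher and 9 lower with vehicle (18 higher and 9 lower with array medians subtracted). It holds both Olfr970 and Olfr965 among the largest rises and Olfr972, Olfr969, Olfr957 and Olfr943 among the largest falls. MOR162 had 5 of 10 higher and 1 lower in both treatments, with Olfr887 and Olfr884 at the ends, and 3 higher with vehicle without vehicle GFP- replicate 2 or 3. MOR170 had 4 of 9 higher and 1 lower with odorant and 3 higher and 1 lower with vehicle (5 higher with array medians subtracted or quantile normalization). In MOR146, Olfr860 was among the largest rises and Olfr857 among the largest falls. MOR146 had 2 of 5 higher and 2 lower with odorant, and 2 higher and 1 lower with vehicle. With odorant, 1 was lower with array medians subtracted, the pool as a block or all 16 arrays in 1 model. With mature neuron markers subtracted 1 was higher, and fits that left out 1 array gave 1 higher, 1 lower or both. MOR161 had 3 of 6 higher and 2 lower with odorant, and 2 higher and 2 lower with vehicle. Without dim probesets 1 MOR161 receptor was lower in each treatment. In the families of under 5 members, 9 of 36 receptors were higher and 9 lower with odorant (14 higher with array medians subtracted), and 12 were higher and 10 lower with vehicle.

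**Figure D4:**
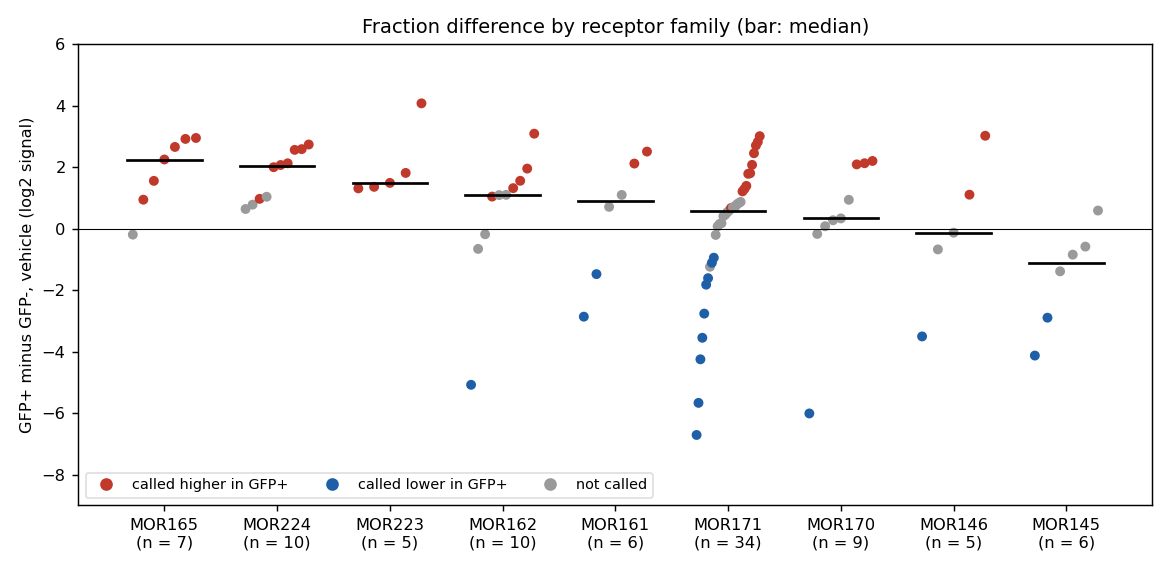
Fraction difference with vehicle (GFP+ minus GFP-, log2 signal) of the receptors in the 9 families with at least 5 members, ordered by their median, which is drawn as a bar. Each point is 1 receptor, coloured by call. All 5 MOR223 points and all 10 MOR224 points lie above 0, while the 34 MOR171 points run from -6.71 to 3.00.

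The contrast of Olfr968 with Olfr972 was set beside the other receptors whose RefSeq model starts at the start codon. Over the first 50 coding bases, 14 of 2278 pairs matched at 90% or more, and the median gap between their vehicle differences was 1.61 (0.13 to 8.78). For the 2169 pairs under 70% identity the median gap was 1.67. The pair Olfr961 and Olfr963, which differ at 1 base, had close differences of 2.12 and 1.99 with vehicle. These values describe pairs that share members, and were not tested.

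Some receptors are named here for their raw signal, which also depends on the probe. Those with the highest mean signal in GFP+ cells were Olfr893 (MOR170), Olfr24 (MOR132), Olfr968, Olfr835 (MOR150) and Olfr958 (MOR224), and in GFP- cells Olfr24, Olfr972, Olfr250, Olfr77 and Olfr935 (MOR171). Olfr893 was at 13.40, 12.81, 13.32 and 13.46 in GFP+ cells with odorant, against 11.42, 10.96, 11.61 and 11.94 in GFP- cells with odorant. With vehicle, Olfr893 was at 13.83, 13.20, 13.38 and 13.95 in GFP+ cells, against 11.41, 10.96, 11.72 and 11.95 in GFP- cells. Its fractions did not overlap, and GFP+ cells were 3.40-fold higher with odorant (limma, adjusted p = 0.00027) and 4.25-fold higher with vehicle (limma, adjusted p = 0.00016). Olfr24 was bright in both fractions, at 13.02, 13.38, 13.23 and 13.51 in GFP+ cells with odorant, against 12.67, 13.14, 13.75 and 13.27 in GFP- cells with odorant. With vehicle, Olfr24 was at 13.51, 13.81, 12.04 and 13.80 in GFP+ cells, against 13.70, 12.96, 12.97 and 13.28 in GFP- cells. The fractions overlapped, and Olfr24 differed by 0.076 with odorant (95% interval -0.41 to 0.56) and by 0.061 with vehicle (95% interval -0.75 to 0.87). Olfr24 is thus 1 of the 4 receptors, with Olfr913 (MOR165), Olfr974 (MOR171) and Olfr25 (MOR170), that had the smallest fraction difference averaged over both treatments among those above background on all 16 arrays. Olfr935 was 1.86-fold lower in GFP+ cells with odorant and 2.16-fold lower with vehicle. Olfr835 was 2.51-fold higher in GFP+ cells with odorant (limma, adjusted p = 0.021) and 2.82-fold higher with vehicle (limma, adjusted p = 0.0033), and the odorant call was lost without odorant GFP+ replicate 3 or 4 (adjusted p of up to 0.065).

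Variation between pools was modest for most receptors. The SD between pools of 1 treatment, taken over the mean of a pool's GFP+ and GFP- arrays, had a median of 0.39 over the 128 receptors and ran from 0.11 to 1.01. Olfr44, Olfr910, Olfr868 and Olfr834 had the largest. Olfr44 (MOR171) was at 8.80, 8.24, 9.91 and 7.61 in GFP+ cells with odorant, against 7.89, 5.71, 7.93 and 7.38 in GFP- cells with odorant. With vehicle, Olfr44 was at 6.80, 8.77, 8.06 and 6.11 in GFP+ cells, against 5.80, 7.57, 7.41 and 5.50 in GFP- cells. The groups overlapped, but the GFP+ array was higher in 8 of 8 pools, by 0.23 to 2.52. Olfr44 was not called with odorant (difference 1.41; limma, adjusted p = 0.15) or with vehicle (0.87; limma, adjusted p = 0.38). With the pool as a block the adjusted p was 0.039 with odorant (range 0.029 to 0.33 over its alternatives) and 0.0096 with vehicle (range 0.0096 to 0.70). Olfr910 (MOR165) was higher in the GFP+ array of 8 of 8 pools, by 1.39 to 2.89, and was called higher with odorant (2.32; limma, adjusted p = 0.036) and with vehicle (2.24; limma, adjusted p = 0.0093). Its odorant call was lost in 6 of 8 fits that left out 1 array (adjusted p of up to 0.10), all except those without odorant GFP+ replicate 2 or odorant GFP- replicate 4, and its adjusted p was 0.00011 with the pool as a block. Olfr834 (MOR153) was at background on all 16 arrays.

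The second comparison asked which receptors differed with the odorant from vehicle within a sorted fraction. In GFP+ cells limma called 0 of the 128 receptors, and 0% of all probesets passed. At an unadjusted p under 0.05 there were 4 higher and 7 lower receptors (8.59%), where 3.82% of all probesets stood (2.36% higher, 1.46% lower) and 6.09% of the other receptors. That count was 17 without odorant GFP+ replicate 4 or vehicle GFP+ replicate 2, and 21 without vehicle GFP+ replicate 3. The adjusted p was 0.999 for each of the 5 receptors with the smallest p. Olfr878, the first of them, was at 3.91 to 5.25 with odorant and 5.51 to 5.85 with vehicle. The odorant arrays differed from them by -1.18 (95% interval -1.72 to -0.64), within signals at background on all 8 arrays. Olfr890 (MOR162) was at 5.61, 5.12, 5.83 and 5.95 with odorant, against 6.76, 5.73, 7.63 and 7.30 with vehicle, which gives -1.23 (95% interval -2.02 to -0.44). No odorant array and 3 vehicle arrays were above background for Olfr890. Olfr912 was at 6.17, 6.67, 7.69 and 7.68 with odorant, against 7.86, 8.25, 7.62 and 8.29 with vehicle, which gives -0.95 (95% interval -1.68 to -0.22). The groups overlapped for Olfr912. Olfr26 and Olfr936, both MOR171, had positive differences of 0.91 and 0.57 and were at background on all 16 arrays.

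In GFP- cells, too, limma called 0 of the 128 receptors, and 0% of all probesets passed. At an unadjusted p under 0.05 there were 2 higher and 12 lower receptors (10.9%), where 6.84% of all probesets stood (3.41% higher, 3.44% lower) and 9.87% of the other receptors. Olfr895 (MOR170) had the smallest p, at 5.36, 5.68, 5.50 and 5.14 with odorant, against 6.90, 6.24, 6.86 and 6.53 with vehicle. The groups did not overlap, with a difference of -1.21 (95% interval -1.64 to -0.79; limma, adjusted p = 0.71), but only 2 of the 8 arrays were above background. Olfr985 (MOR171), above background on all 8 arrays, was at 8.96, 9.62, 9.75 and 9.22 with odorant, against 10.63, 9.97, 10.05 and 9.84 with vehicle. Its groups did not overlap either, with a difference of -0.74 (95% interval -1.24 to -0.23; limma, adjusted p = 0.71). Olfr948 (MOR171), Olfr979 (MOR223) and Olfr921 had differences of -0.83, -0.67 and -1.01, each with an adjusted p of 0.71. For Olfr948 and Olfr979, 5 and 2 of the 8 arrays were above background.

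The interaction, which subtracts the odorant difference of GFP- cells from that of GFP+ cells, gave 0 calls among the 128 and 0% of all probesets. At an unadjusted p under 0.05 there were 0 higher and 2 lower receptors (1.56%), where 4.92% of all probesets stood (2.95% higher, 1.98% lower) and 3.26% of the other receptors. That small count rests on the fit: there were 4 higher and 4 lower (6.25%, where 6.57% of all probesets stood) with the replicate block, 5 higher and 5 lower (7.81%, where 4.43% stood) without vehicle replicate 4, and 2 to 5 receptors in all without any other replicate. The 2 were Olfr878, at -1.21 (95% interval -1.97 to -0.46), and Olfr837 (MOR152), at -0.83 (95% interval -1.58 to -0.080), each with an adjusted p of 0.96 in limma. Olfr837 was at background on all 16 arrays. The next smallest p values belonged to Olfr972 (1.39), Olfr895 (0.99) and Olfr912 (-1.06). With 4 arrays a group, the intervals bound the odorant effect for the receptors measured well. Of the 72 receptors above background on all 8 GFP+ arrays, the 95% interval of the odorant difference lay between -1 and 1 for 50 and between -2 and 2 for all 72, with a median half-width of 0.61. Its upper bound was below 1 for 68 and its lower bound above -1 for 54. Of the 63 above background on all 8 GFP- arrays, it lay between -1 and 1 for 44 and between -2 and 2 for all 63, with a median half-width of 0.60. Its upper bound was below 1 for 55 and its lower bound above -1 for 52. The fitted differences of these receptors ran from -0.68 to 0.40 in GFP+ cells and from -0.88 to 0.60 in GFP- cells.

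**Figure D5:**
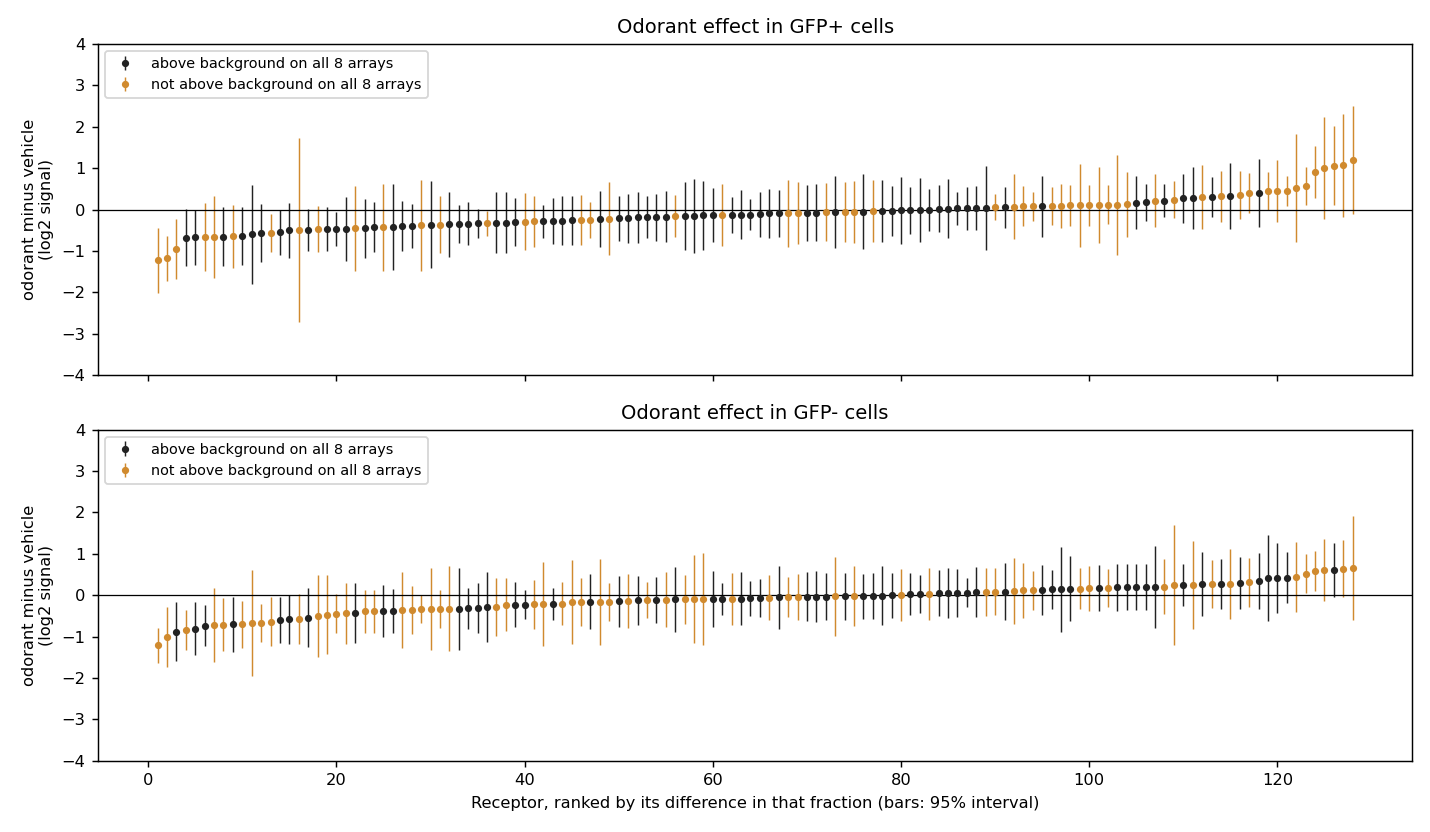
Odorant effect (odorant minus vehicle, log2 signal) of the 128 receptors in GFP+ cells (upper panel) and in GFP- cells (lower panel), each ranked by its fitted difference, with 95% intervals as bars. Black points are the 72 receptors (GFP+) and 63 receptors (GFP-) above background on all 8 arrays, orange points the rest. The black points lie between -0.68 and 0.40 in GFP+ cells and between -0.88 and 0.60 in GFP- cells, and none of the 128 was called.

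The homeodomain protein Lhx2 and Ebf factors bind receptor enhancers, and matching sites are known upstream of many receptor genes. RefSeq windows were found for 107 of the 128 receptors (108 windows, since 1 gene has 2), from 250 bases before to 50 bases after the gene start. For 68 of them the gene model begins at the start codon, so the window does not mark a transcription start, and these were left out, which left 40 windows of 39 receptors with their 250 upstream bases. The homeodomain core TAATTA, which reads the same on both strands, was in 10 of 40 (25%), in 16.04% of the windows of other receptors and in 4.43% of those of all genes. The palindromic core of Ebf sites, also the same on both strands, was in 0 of 40, against 0.472% and 0.785%. TATAAA, on either strand, was in 14 of 40 (35%), against 31.1% and 11.4%. TAATTA and TATAAA may overlap in a window. TAATTA was in 3 of 15 windows of receptors called higher with vehicle, 3 of 9 of those called lower and 4 of 16 of those not called. The upstream windows of a rise, Olfr860 (chr9:19849748-19849997, minus strand), and of the falls Olfr77 (chr9:19916979-19917228, plus strand) and Olfr878 (chr9:37918298-37918547, plus strand) are printed because their differences are among the largest, with TAATTA in capitals (1, 3 and 0 matches; RefSeq, GRCm38.p6).
Olfr860: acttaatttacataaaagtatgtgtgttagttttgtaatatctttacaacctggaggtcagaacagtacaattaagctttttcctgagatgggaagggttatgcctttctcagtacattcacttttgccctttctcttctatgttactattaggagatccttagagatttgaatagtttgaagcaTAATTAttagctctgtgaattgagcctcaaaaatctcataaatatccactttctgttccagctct
Olfr77: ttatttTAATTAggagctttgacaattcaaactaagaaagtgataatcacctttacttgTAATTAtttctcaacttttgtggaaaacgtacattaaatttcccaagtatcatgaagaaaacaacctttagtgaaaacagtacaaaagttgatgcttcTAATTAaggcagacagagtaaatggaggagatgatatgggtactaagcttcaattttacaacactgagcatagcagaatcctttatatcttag
Olfr878: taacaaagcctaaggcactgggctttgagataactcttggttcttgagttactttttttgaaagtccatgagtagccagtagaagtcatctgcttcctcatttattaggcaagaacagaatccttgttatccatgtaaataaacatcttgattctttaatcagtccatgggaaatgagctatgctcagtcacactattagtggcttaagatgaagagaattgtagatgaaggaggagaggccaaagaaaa
The upstream window of Olfr912, also among the largest rises, held 0 TAATTA matches and is not printed. Matches are descriptions of these letters and were not tested as sites.

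The 23 listed regulators of receptor expression include Lhx2, Ldb1, Ebf1 and the trafficking proteins Rtp1 and Rtp2. In GFP+ cells with odorant, limma called 0 of them higher and 1 lower (Lbr), where 3.57% and 7.84% of all probesets stood. With vehicle it called 4 higher (Ebf1, Adcy3, Dnmt3a and Emx2) and 1 lower (Lbr), where 7.76% and 9.97% stood. Ebf1 and Adcy3 are also among the mature neuron markers called higher with vehicle. The log2 of the summed signal of the 23 regulators was 20.43 to 20.63 (GFP+) and 20.23 to 20.46 (GFP-). Between odorant and vehicle, 0 of the 23 were called in either fraction.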

How the data were processed

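RNA of sorted cells was measured on Clariom S arrays, 16 in all and 4 in each of 4 groups. The authors deposited log2 values made with Affymetrix Expression Console, per the submitters' processing notes, and for its version, the normalization and the genome build nothing is given in the sources used here. Groups and replicate numbers came from the sample titles and characteristics, and 0 value columns lacked a sample. Of 28846 probesets, 6640 controls were left out. Of the remaining 22206, 19572 had 1 gene symbol, 0 had several and 2634 had none. All 128 members matched RefSeq, which gave gene order, MOR names, coding starts and upstream windows (GRCm38.p6).

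Each comparison was fitted with limma 3.58.1 (R 4.3.3; lmFit, eBayes) on the log2 values over all 22206 probesets, two-sided, at a threshold of 0.05 after Benjamini-Hochberg adjustment across the whole table. Fits held the groups compared, and the interaction all 4 groups. Intervals are 95% intervals of the fitted difference. The script was tested on simulated data. Background on an array was the 95th percentile of 23 antigenomic control probesets. Where no array of a group, or its mean, was above it, the fold is a bound ("at least"), taken against the mean over that group's arrays of the higher of the probeset's own signal and the background level. The number of arrays limits the precision. Pooled animals share an array, so p-values measure the spread between arrays of a group, not between single mice. The main fraction and interaction fits held no pool term, so GFP+ and GFP- arrays of the same mice entered as independent. In the fraction comparisons the replicate block, run as an alternative, took the pool into account.

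The GFP+ and GFP- arrays of 1 number come from the same mice, which rests on the titles and the numbers of mice. Their deviations from the group means correlated with r of 0.11 to 0.16 with vehicle and 0.014 to 0.36 with odorant. With vehicle the best match had the same number for every pool. With odorant it did so for numbers 2 and 3, but not for numbers 1 (r of 0.014) and 4 (r of 0.14). These values thus do not bear out the pairing of odorant pools 1 and 4. Odorant and vehicle pools are different mice, and no label ties their numbers (r of -0.10 to 0.30). Pools numbered 4 had low Eif2s3y in both treatments and correlated with r of 0.25 (GFP+) and 0.30 (GFP-).

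Alternatives were quantile normalization, subtraction of array medians or of mature neuron markers, leaving out dim probesets, the replicate block, all 16 arrays in 1 model, an intensity trend for the interaction, each replicate left out, and other background percentiles. The members and lists were chosen with earlier results of these data known. Receptors were named by rule: the 12 largest rises and falls with vehicle and 8 of each with odorant, the 5 smallest p in each odorant comparison and the interaction, the 5 highest signals per fraction, the 4 largest SDs between pools, the 4 smallest fraction differences averaged over treatments and the longest run. MOR families and the comparison of coding starts were added after values were seen. Protein sequences and array probe sequences were not used here.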

Additional observations from a re-analysis of the deposited data

Results flagged for a closer look

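Of 137 groups of 4 arrays tested over the 50 named receptors, 7 held an array far from the other 3 by Dixon's criterion, where chance gives about 1 in 20. Of these, 4 were on the vehicle GFP+ array of replicate 3. There Olfr972 was at 3.85, with the others at 6.19 to 6.63, and Olfr24 was at 12.04, with the others at 13.51 to 13.81. On the same array Olfr834 was at 5.25, with the others at 2.84 to 3.01, all at background, and Olfr25 was at 7.87, with the others at 8.30 to 8.38. Olfr912 was at 6.43 in odorant GFP- replicate 4, with the others at 4.69 to 4.84, and Olfr884 was at 3.89 in odorant GFP+ replicate 1, with the others at 4.67 to 4.82. These groups were at background. Olfr878 was at 11.09 in vehicle GFP- replicate 3, with the others at 11.96 to 12.08.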

How the results depend on the processing

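Counts over all 128 receptors called in the fraction comparisons stayed within 1.5 times under every alternative run, while some counts by family and cluster did not, as given beside them. With array medians subtracted, MOR161 had 4 receptors higher with vehicle, against 2 as deposited. Leaving out each array in turn gave 46 to 56 higher and 24 to 28 lower with odorant, and 47 to 57 higher and 22 to 27 lower with vehicle. The replicate block gave 55 higher and 26 lower with odorant and 57 higher and 29 lower with vehicle. Among named receptors it changed the calls of Olfr44, Olfr834 and Olfr960 with odorant (adjusted p of 0.039, 0.0089 and 0.044 in limma) and of Olfr44 and Olfr890 with vehicle (0.0096 and 0.012). The odorant comparisons and the interaction gave 0 calls among the 128 in limma under every alternative. At an unadjusted p under 0.05 there were 11, 14 and 2 receptors in the fits reported and 21, 23 and 8 with the replicate block. In the odorant comparisons that block paired odorant and vehicle pools by number, although they are different mice and no label ties the numbers. The counts of 21 and 23 (16.4% and 18%, where 4.26% and 7.63% of all probesets stood) thus rest on an arbitrary pairing. Leaving out probesets at background left 4, 11 and 1 receptors, with fewer tested. With array medians subtracted, all probesets split 7757 higher to 1520 lower with odorant and 10363 to 1687 with vehicle, against 793 to 1742 and 1723 to 2213 as deposited, and with mature neuron markers subtracted 485 to 2136 and 718 to 3320.

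Among named receptors, reversed signs occurred only where no fraction difference was called. The median of the first cluster also changed sign, as given with its counts. Over the 128, the median interaction went from -0.0073 to 0.049 without odorant replicate 1. The median odorant difference in GFP- cells went from -0.076 to 0.00030 without vehicle GFP- replicate 4. With mature neuron markers subtracted, Olfr24 was at -0.090 with odorant and -0.15 with vehicle, Olfr913 at -0.078 with odorant and Olfr25 at -0.14 with vehicle. With array medians subtracted, Olfr974 was at 0.13 with odorant and Olfr913 at 0.17 with vehicle. Leaving out 1 array gave -0.10 to 0.26 for Olfr24, -0.18 to 0.23 for Olfr913 and -0.40 to 0.068 for Olfr974 with odorant, and -0.11 to 0.48 for Olfr24, -0.12 to 0.28 for Olfr25 and -0.41 to 0.030 for Olfr913 with vehicle. The cause was not tested. Signal over background limits the dim receptors: with the 75th or 99th percentile as background, 83 or 61 receptors were above it on all 4 odorant GFP+ arrays, against 76 as reported. Among genes with similar coding starts, cross-hybridization was not tested.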
